A study of Mus musculus with 127 samples.

Results

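Nadk, Nampt, Sod2, G6pdx, Cybb, Cyba, Ncf1 and Ncf4 are 8 of the 23366 gene symbols in a deposited expression table of mouse bone marrow LT, ST and MPP cells, names used in the field for long-term and short-term hematopoietic stem cells and multipotent progenitors. The set was selected on these data: Nadk was taken because it separated cells cultured with ligand from cells cultured without it, and the others share its pathway from NAD to superoxide. Cells sorted by surface markers were cultured with 100 ng/ml LPS, a ligand of Toll-like receptor 4, and 1 µg/ml Pam3csk4, a synthetic lipopeptide ligand of Toll-like receptor 2, for 0.5, 1, 2, 4, 8 and 12 h (young mice 1, 2 and 3 and old mouse 2). Unstimulated cells were cultured for 2, 4 and 8 h (young mouse 4 and old mouse 4), and a 0 h sample of each of these 6 mice served as the baseline. The question was how young and old stem and progenitor cells respond to inflammatory ligands over time. The labels give no strain, sex or age in months, and each library is named by 1 mouse. No mouse was cultured both ways, so ligand and mouse cannot be told apart, and there was 1 old mouse on each side.

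NAD kinase, encoded by Nadk, phosphorylates NAD to NADP, and Nampt encodes the rate-limiting enzyme that salvages nicotinamide into NAD. G6pdx encodes glucose-6-phosphate dehydrogenase, the first enzyme of the pentose phosphate pathway and a main source of NADPH. The phagocyte NADPH oxidase spends NADPH to make superoxide: Cybb and Cyba encode its membrane core, and Ncf1 and Ncf4 encode cytosolic subunits that join the core on activation. Sod2 encodes the mitochondrial manganese superoxide dismutase, which turns superoxide into hydrogen peroxide and is a known target of NF-kB. In blood formation the oxidase is best known from neutrophils and macrophages.

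After summing technical repeats there were 108 libraries of 0.991 to 11.8 M (1000000) expected counts (median 4.2 M), with 6241 to 14096 detected genes. Libraries of the stimulated course had a median of 4.48 M counts, against 1.97 M in the unstimulated course. The labelled identity was checked with the summed counts per 1000000 (CPM) of marker lists. In all 6 mice the 9 stem and progenitor markers were detected, with sums of 190 to 4494 CPM, but 6 neutrophil granule transcripts summed to 5640 to 78550 CPM in 5 of the mice. Young mouse 3 stood apart: its 21 libraries held 24.8 to 2004 CPM of these granule transcripts, 150 to 1372 CPM of 10 monocyte and macrophage markers (1394 to 15320 in the other mice) and 7.07 to 1906 CPM of 5 primary granule markers (202 to 20130). Its stem and progenitor sum, 1441 to 4494 CPM, reached higher than in any other mouse. Markers of B cells, of T and NK cells and of erythroid cells summed to at most 511, 301 and 2248 CPM in any library. The expression of oxidase genes in a bulk library depends on how many cells of each kind it holds, and a change in cell numbers and a change in RNA per cell cannot be told apart. For that reason the members are given mouse by mouse.

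RefSeq lists promoters for 7 of the 8 genes, with 2 start sites for Nadk. The sequences of Nadk and Sod2 are shown because these genes followed each other most closely over the conditions. Each runs from 250 bases before to 50 bases after the start, 5′ to 3′ on the plus strand of GRCm38.p6, with the kappa-B consensus of NF-kB in capitals where it occurs.
Nadk, first start site, chr4:155562131-155562430: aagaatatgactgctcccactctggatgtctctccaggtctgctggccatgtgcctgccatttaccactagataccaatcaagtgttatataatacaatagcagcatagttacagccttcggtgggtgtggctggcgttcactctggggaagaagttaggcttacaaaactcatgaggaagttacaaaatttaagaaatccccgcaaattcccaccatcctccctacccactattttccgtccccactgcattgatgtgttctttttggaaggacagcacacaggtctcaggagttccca
Nadk, second start site, chr4:155563565-155563864: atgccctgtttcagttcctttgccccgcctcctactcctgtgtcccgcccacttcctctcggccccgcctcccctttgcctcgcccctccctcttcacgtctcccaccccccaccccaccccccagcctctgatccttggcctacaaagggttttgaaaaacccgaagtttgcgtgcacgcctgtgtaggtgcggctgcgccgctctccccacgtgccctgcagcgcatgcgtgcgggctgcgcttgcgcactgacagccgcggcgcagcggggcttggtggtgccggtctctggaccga
Sod2, chr17:13007589-13007888: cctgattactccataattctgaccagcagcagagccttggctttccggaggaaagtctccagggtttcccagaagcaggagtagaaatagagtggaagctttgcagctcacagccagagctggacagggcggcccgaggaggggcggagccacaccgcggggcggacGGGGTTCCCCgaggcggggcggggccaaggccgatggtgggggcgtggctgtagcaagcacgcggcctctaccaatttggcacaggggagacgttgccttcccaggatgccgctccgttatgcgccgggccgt
Both strands were searched. The Sod2 window held 1 match to the kappa-B consensus, GGGGTTCCCC, whose first base lies at position -83 from the start. Of 32851 promoters of the same length, 8.46% held a match, and neither Nadk window nor the windows of Nampt, G6pdx, Cybb, Cyba and Ncf1 did. The PU.1 core GAGGAA, named for a myeloid transcription factor, was in both Nadk windows and in those of Sod2 and Cybb, and in 28.3% of all promoters. An AP-1 motif, TGANTCA, was in the Cybb window (7.81% of all) and the antioxidant response core, TGACNNNGC, in that of G6pdx (12.4% of all). These are matches of letters, not measured binding.

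Nadk transcripts were higher from 2 h on in every mouse cultured with ligand, and by 8 h they were lower than at the start in both mice cultured without it. In LT of young mouse 1 the level was 370, 364, 558, 1308, 1447, 1388 and 1156 CPM at 0, 0.5, 1, 2, 4, 8 and 12 h. Young mouse 2 gave 252, 118, 242, 682, 735, 1458 and 1315 CPM at the same times. In young mouse 3 the values were 134, 90.6, 98.0, 556, 615, 692 and 881 CPM. The first hour brought no common direction, and the step came between 1 and 2 h in all of them. LT of old mouse 2 held 229, 248, 257, 585, 549, 509 and 947 CPM. Without ligand, LT of young mouse 4 held 614, 576, 310 and 132 CPM at 0, 2, 4 and 8 h, and LT of old mouse 4 held 387, 272, 174 and 133 CPM. At 8 h the lowest stimulated LT library, 509 CPM in old mouse 2, lay above both unstimulated ones, although the unstimulated mice had started at the 2 highest levels.

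**Figure D1:**
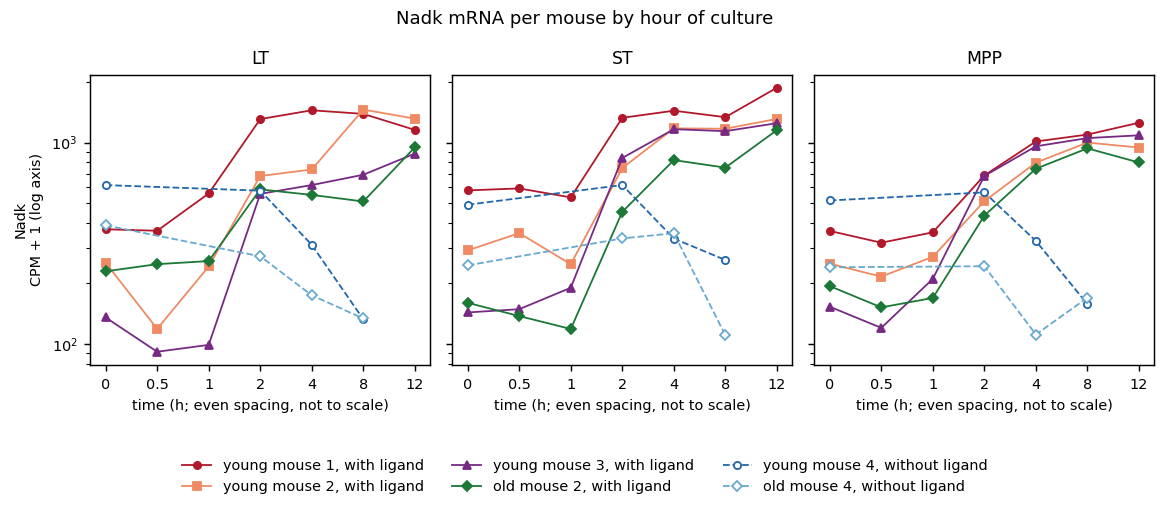
Nadk expression (CPM + 1, log axis) by hour of culture in LT, ST and MPP, 1 line per mouse, filled symbols and solid lines with ligand, open symbols and dashed lines without. In LT at 8 h the 4 stimulated mice lie between 509 and 1458 CPM and the 2 unstimulated ones at 132 and 133 CPM.

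In ST and MPP too, Nadk was higher from 2 h on with ligand and lower at 8 h without it. At 0.5 h with ligand it was slightly lower in all 4 mice in MPP (-0.35 to -0.19 log2 units) and went both ways in ST (-0.22 to 0.29). In ST at 8 h young mice 1, 2 and 3 and old mouse 2 held 1337, 1171, 1140 and 751 CPM with ligand, against 260 and 110 CPM in young mouse 4 and old mouse 4 without. The 0 h levels of those mice, in the same order, were 578, 291, 143, 159, 491 and 245 CPM. In MPP at 8 h the stimulated mice held 1096, 1000, 1052 and 936 CPM, against 157 and 169 CPM in the unstimulated ones. Their 0 h levels were 364, 249, 152, 193, 515 and 239 CPM. Stimulated and unstimulated libraries did not overlap at 8 h in any of the 3 cell types. Young mouse 3, with few granule transcripts, had the lowest Nadk of the young mice at 0 h in all 3, and from 2 h its ST and MPP levels lay beside those of the other mice.

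Because Nadk was chosen by this difference, its size is given with no test. An edgeR fit of 72 libraries put the change from 0 h with ligand above the change without by 3.93 ± 0.76 (SE) on the log2 scale in LT at 8 h, 2.82 ± 0.74 in ST and 3.27 ± 0.75 in MPP. At 2 h the fitted differences were 1.89 ± 0.73, 1.19 ± 0.72 and 1.26 ± 0.72, and at 4 h 2.84 ± 0.74, 2.02 ± 0.73 and 2.63 ± 0.74. The gap therefore widened with time in each cell type. Part of it came from the fall without ligand: at 8 h the change over 0 h was -2.21 and -1.54 in LT of young mouse 4 and old mouse 4, on the log2(CPM + 1) scale.

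Times that the choice of Nadk did not use were 0.5, 1 and 12 h, although their tests share the 0 h libraries and the stimulated mice with it. In LT of young mice 1 to 3 Nadk already averaged 1179 CPM at 8 h. Its 12 h test is thus not independent of the choice. At 12 h Nadk averaged 1117 ± 219 CPM in LT of young mice 1 to 3, against 252 ± 118 CPM at 0 h (SD, n = 3 each). By edgeR's quasi-likelihood test with Benjamini-Hochberg adjustment over 13678 genes it was higher at 12 h by 2.23 ± 0.51 log2 units in LT (adjusted p = 0.035), 2.21 ± 0.51 in ST (adjusted p = 0.025) and 2.25 ± 0.51 in MPP (adjusted p = 0.023). All 3 mice went up in each cell type. Genes called higher at 12 h were 0.227% of those tested in LT, 0.271% in ST and 0.3% in MPP. At 0.5 and 1 h the fitted changes of Nadk lay between -0.43 and 0.30, and none passed (adjusted p = 1). The 12 h call depended on young mouse 2 (adjusted p = 1 in LT, 0.58 in ST and 1 in MPP without it), and in ST and MPP also on young mouse 3 (adjusted p = 0.07 and 0.059 without it), while the fitted change stayed between 2.03 and 2.65. It was also lost in LT and ST when each cell type was fitted alone (adjusted p = 0.56 and 0.1) or when libraries under 8000 detected genes were left out (adjusted p = 1 and 0.08).

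Technical repeats show how precisely a library gave Nadk. The 2 LT repeats of young mouse 2 at 0 h differed, at 86.4 and 449 CPM, whereas its MPP repeats gave 244 and 252 CPM. In LT of young mouse 1 the repeats were 263 and 456 CPM, and in LT of old mouse 2 294 and 157 CPM. All of these lie below the 2 h values of the same mouse.

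Nampt, which feeds NAD to the kinase, had its highest levels in culture without ligand in ST and MPP, and no change with ligand passed the test without a block. In LT of young mouse 4, cultured without ligand, it was 225, 603, 1265 and 1585 CPM at 0, 2, 4 and 8 h. In old mouse 4 it was 94.0, 202, 497 and 489 CPM. The level was higher at 8 h in both unstimulated mice and in all cell types, with log2 changes at 8 h of 2.37 to 3.44. With ligand the 8 h LT levels were 158, 428, 91.1 and 214 CPM in young mice 1, 2 and 3 and old mouse 2, against 102, 16.3, 71.1 and 61.0 CPM at 0 h. At 12 h young mouse 1 reached 1633 CPM in LT, while young mouse 3 stayed at 106 CPM. In ST of young mouse 3 Nampt stood at 22.2 CPM at 12 h and 65.3 CPM at 0 h. The edgeR test passed Nampt at no time (at 12 h in LT a change of 3.64 ± 1.01, adjusted p = 0.14), and with the mouse as a block it passed in LT at 12 h alone (3.10 ± 0.81, adjusted p = 0.044). It also passed there by DESeq2 (3.61, adjusted p = 0.0015) and by edgeR without young mouse 3 (4.33, adjusted p = 0.02), and by limma voom in MPP at 4 and 12 h (1.73 and 1.80, adjusted p = 0.037 and 0.028). Genes called higher at 12 h in LT with the block were 0.585% of those tested.

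Of 19 further genes of NAD synthesis and use in the table, 14 could be tested, and edgeR called none of them at any of the 6 times in any cell type; with the block 1 test passed, a lower Bst1, an NAD-cleaving ectoenzyme, in ST at 2 h. The abundant members of that list, Parp1, Bst1 and Cd38, all use NAD. At 12 h in LT their fitted changes were -2.39 ± 1.00, 2.90 ± 2.53 and 0.73 ± 2.05 log2 units, and none passed. The median change of the 14 genes ran from -1.94 to 0.25 over the 18 changes, against -0.41 to -0.05 for all genes tested.

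G6pdx was variable in LT and more even in MPP. In LT young mice 1, 2 and 3 held 878, 132 and 53.9 CPM at 12 h, against 287, 159 and 44.6 CPM at 0 h. In MPP the same mice held 680, 444 and 111 CPM at 8 h, against 253, 168 and 73.4 CPM at 0 h. All 3 were higher in MPP, by 1.51 ± 1.14 log2 units in the fit, but the adjusted p was 1 (0.55 with the block). Without ligand MPP of young mouse 4 and old mouse 4 held 244 and 425 CPM at 8 h, against 400 and 188 CPM at 0 h, so these mice went opposite ways. In ST of young mouse 3 at 12 h no count of G6pdx was seen, but this library was the shallowest, at 0.991 M counts, where 3 counts equal 3.03 CPM.

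Of the other enzymes that make NADPH or carry on the pentose phosphate pathway, none of 18 tested genes passed the edgeR test in any of 324 gene and time tests. With the mouse as a block 12 tests passed upwards, all of them Pgd, the second NADPH-making enzyme of the pathway, or Taldo1, which acts in its non-oxidative arm, and 1 downwards, Mthfd1l, a mitochondrial folate enzyme named after its values were seen. Of all gene and time tests with the block, 0.751% passed. In LT at 8 h Pgd held 1885, 1146 and 312 CPM in young mice 1, 2 and 3, against 783, 262 and 107 CPM at 0 h (change with the block 1.66, adjusted p = 0.0078). It was also higher without ligand, at 1730 and 1082 CPM at 8 h in young mouse 4 and old mouse 4, against 597 and 312 CPM at 0 h. Tkt, a transketolase of the same pathway, changed by 0.12 ± 0.51 log2 units in LT at 12 h and did not pass. In MPP at 8 h Tkt went opposite ways, at 2173 CPM in young mouse 1 and 566 CPM in young mouse 3, against 1314 and 905 CPM at 0 h.

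Sod2 was many-fold higher with ligand in young mice 1 and 2, less so in old mouse 2, and close to its start in LT of young mouse 3. LT of young mouse 1 held 32.5, 237, 517, 1391, 1586, 2086 and 2804 CPM at 0, 0.5, 1, 2, 4, 8 and 12 h. Young mouse 2 gave 124, 183, 405, 841, 1419, 1678 and 1669 CPM. Young mouse 3 gave 97.6, 119, 107, 92.7, 59.6, 70.7 and 91.3 CPM. Young mice 1 and 2 were higher from 0.5 h on, while young mouse 3 ended where it began, in the same libraries in which its Nadk went up. LT of old mouse 2 reached 444 CPM at 4 h, against 111 CPM at 0 h. Without ligand LT of young mouse 4 held 75.3, 104, 167 and 42.2 CPM and LT of old mouse 4 held 142, 127, 192 and 102 CPM at 0, 2, 4 and 8 h. In LT neither unstimulated mouse ended above its start.

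In ST at 12 h Sod2 was at 2054, 1753, 118 and 945 CPM in young mice 1, 2 and 3 and old mouse 2, against 106, 132, 122 and 93.5 CPM at 0 h. In MPP the 12 h levels were 1204, 828, 188 and 676 CPM, against 89.2, 117, 115 and 122 CPM at 0 h. The order of the mice was the same in the 3 cell types. Without ligand ST of young mouse 4 held 55.1, 241, 125 and 112 CPM at 0, 2, 4 and 8 h and ended above its start, and ST of old mouse 4 held 117, 79.8, 95.4 and 84.3 CPM. In MPP these mice held 91.3 and 117 CPM at 8 h, against 118 and 131 CPM at 0 h. The edgeR test did not pass Sod2 at any time: at 12 h the fitted changes were 4.28 ± 1.24 in LT (adjusted p = 0.2), 3.57 ± 1.20 in ST (adjusted p = 0.21) and 2.97 ± 1.17 in MPP (adjusted p = 0.87). DESeq2 passed it in LT at 2, 4, 8 and 12 h (3.14 to 4.26, smallest adjusted p = 0.0012) and in ST at 12 h, where 2.94% of all gene and time tests passed. Without young mouse 3 edgeR passed it in 13 of 18 tests, from 1 h in LT (2.60, adjusted p = 0.0054) to 12 h (5.01, adjusted p = 5.6e-07), against 0.521% of all gene and time tests. That mouse is the one with 24.8 to 2004 CPM of neutrophil granule transcripts; the part of this difference in the Sod2 result was not tested.

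Among 25 further genes of superoxide and peroxide removal, edgeR called none. With the block 5 tests passed upwards (Prdx1, Glrx and Txnrd1) and 2 downwards (Gpx1 and Gpx3); of these Glrx, Txnrd1 and Gpx3 were named after their values were seen. Prdx1, a peroxiredoxin that reduces hydrogen peroxide, held 5995, 5502 and 360 CPM in LT of young mice 1, 2 and 3 at 8 h, against 355, 584 and 321 CPM at 0 h (block adjusted p = 0.0451). Like Sod2 it was flat in young mouse 3. Unlike Sod2 it was also higher without ligand, at 3631 and 2703 CPM in young mouse 4 and old mouse 4 at 8 h, against 296 and 372 CPM at 0 h. Gpx1, a glutathione peroxidase, and Prdx6 changed by -0.49 ± 0.44 and 1.02 ± 0.49 log2 units in LT at 12 h and did not pass.

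**Figure D2:**
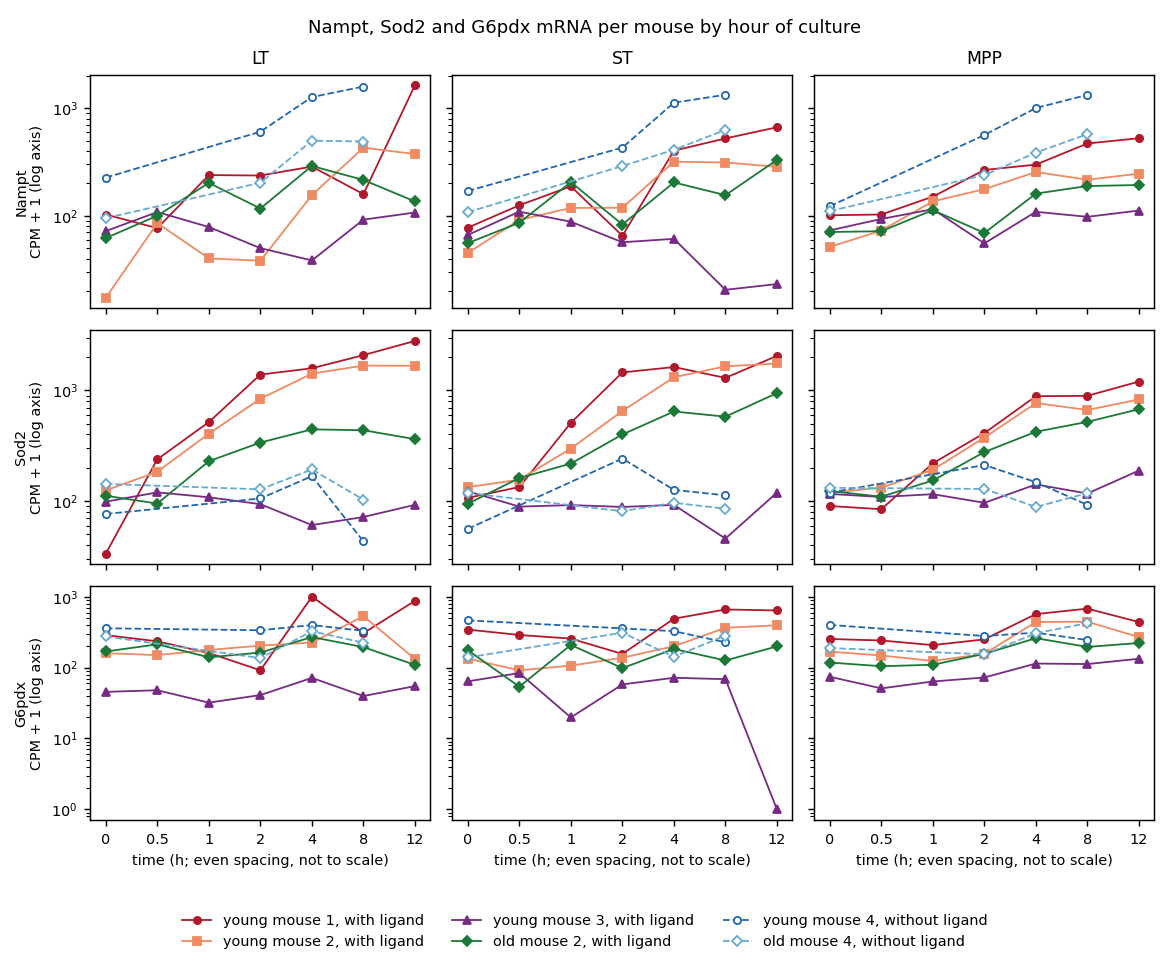
Nampt, Sod2 and G6pdx expression (CPM + 1, log axis) by hour of culture in LT, ST and MPP, 1 line per mouse, solid with ligand and dashed without. Nampt is higher at 8 h in both unstimulated mice in each cell type (1585 CPM in LT of young mouse 4) and varies between stimulated mice, Sod2 climbs in stimulated young mice 1 and 2 (2804 CPM at 12 h in LT of young mouse 1), and in LT young mouse 3 ends near its start for both.

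Of the membrane core, Cybb, the catalytic subunit, differed more between mice than with time. At 0 h LT of young mice 1 to 4 held 1142, 459, 12.6 and 1674 CPM, and LT of old mice 2 and 4 held 729 and 838 CPM. Young mouse 3 thus began far below the rest. Its LT had no count of Cybb at 1, 2 and 8 h, where 3 counts would equal 0.657 to 0.711 CPM, and 47.3 CPM at 12 h. In MPP the same mouse held 12.2, 10.4, 16.7, 48.0, 145, 343 and 441 CPM from 0 to 12 h. In ST it went to 216 CPM at 12 h, with no count at 0 h. Its monocyte marker sum was higher in the same libraries, at 1372 CPM in MPP and 1273 CPM in ST at 12 h, against 367 and 237 CPM at 0 h. Young mouse 1 held 2307 CPM in MPP at 12 h, against 890 CPM at 0 h, and young mouse 2 held 1375 CPM, against 314 CPM. In old mouse 2 the MPP level was 945 CPM at 12 h, against 299 CPM at 0 h, but in its LT it was 266 CPM at 12 h, against 729 CPM.

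Without ligand Cybb was lower at 8 h in both mice and all cell types, although in MPP the log2 changes were -0.98 and -0.03, the latter close to none. LT of young mouse 4 and old mouse 4 held 937 and 611 CPM at 8 h, against 1674 and 838 CPM at 0 h. The monocyte marker sum was lower in those libraries too: it was 5391 CPM at 8 h in young mouse 4, against 15320 CPM at 0 h, and 3025 CPM in old mouse 4, against 7268 CPM. With ligand the neutrophil granule sum in MPP of young mice 1 and 2 was 78550 and 39140 CPM at 8 h, against 43970 and 20660 CPM at 0 h. The primary granule sum in those libraries was lower, at 2478 and 1440 CPM, against 8462 and 5848 CPM. Their monocyte marker sum was higher, at 11950 and 5186 CPM, against 8974 and 3675 CPM. In LT of these mice the monocyte marker sum was lower, at 8428 and 5501 CPM at 8 h, against 10650 and 6052 CPM at 0 h. No change of Cybb passed by edgeR; with the block the largest was 3.96 ± 1.24 in MPP at 12 h (adjusted p = 0.13). Young mouse 3, lowest in Cybb, also had the lowest monocyte marker sum (150 to 1372 CPM) and granule sum (24.8 to 2004 CPM), and the part of these markers, or of their changes with time, in the values of the oxidase genes was not tested.

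Cyba, the partner that stabilises Cybb, was higher at 12 h than at 0 h in each stimulated mouse. In LT at 12 h young mice 1, 2 and 3 held 680, 661 and 197 CPM, against 421, 219 and 78.2 CPM at 0 h. In ST they held 637, 740 and 310 CPM, against 360, 311 and 98.9 CPM. In MPP they held 616, 678 and 320 CPM, against 283, 244 and 82.1 CPM. Within each mouse the 12 h level was higher. Over young mice 1 to 3 the 12 h and 0 h levels overlapped in LT and ST and did not overlap in MPP. MPP of young mouse 4, cultured without ligand, held 638 CPM at 0 h, within the 12 h range. Old mouse 2 held 280, 547 and 508 CPM in LT, ST and MPP at 12 h, against 204, 180 and 149 CPM at 0 h. In its LT at 8 h, however, Cyba was at 185 CPM, below the start. By edgeR without the block no test of Cyba passed (smallest adjusted p = 0.41), whereas limma voom passed it in MPP at 8 h (1.20, adjusted p = 0.032) and 12 h (1.49, adjusted p = 0.0037). With the mouse as a block it was higher at 8 h in LT (1.20 ± 0.29, adjusted p = 0.021), ST (1.16 ± 0.29, adjusted p = 0.031) and MPP (1.43 ± 0.29, adjusted p = 0.0031), and at 12 h in LT (1.25 ± 0.29, adjusted p = 0.015), ST (1.31 ± 0.29, adjusted p = 0.0068) and MPP (1.67 ± 0.29, adjusted p = 0.00034). Genes called higher with the block were 0.665%, 0.658% and 0.6% of those tested at 8 h in LT, ST and MPP, and 0.848% and 0.76% at 12 h in ST and MPP. Without ligand Cyba was 676 and 242 CPM at 8 h in LT of young mouse 4 and old mouse 4, against 492 and 426 CPM at 0 h, in opposite directions.

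Ncf1, the organiser of the cytosolic subunits, changed more than any other member in LT of young mouse 3. That LT held 9.57, 21.1, 28.3, 116, 290, 470 and 623 CPM from 0 to 12 h. In ST of that mouse the level was 1229 CPM at 8 h, against 47.7 CPM at 0 h, and in MPP 1370 CPM, against 164 CPM. In ST and MPP its Ncf1 thus came close to the other mice, and its Cybb was also higher at 12 h there. In ST at 8 h young mice 1 and 2 and old mouse 2 held 1628, 2067 and 1236 CPM, against 833, 387 and 382 CPM at 0 h. Without ligand ST of young mouse 4 and old mouse 4 held 1295 and 587 CPM at 8 h, against 1462 and 534 CPM at 0 h. All 4 stimulated mice were higher at 8 h in every cell type, and the 2 unstimulated ones changed by -0.45 to 0.57 log2 units.

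The edgeR test passed Ncf1 at no time. With the block it passed in ST at 8 h (2.75 ± 0.73, adjusted p = 0.0499) and 12 h (2.58 ± 0.73, adjusted p = 0.0463), and limma voom passed it in MPP at 4, 8 and 12 h (1.91, 2.20 and 2.13, smallest adjusted p = 0.0002), where 4.26% of all gene and time tests passed. A fit of MPP libraries alone passed it at 8 h (2.31, adjusted p = 0.046).

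Ncf4, a regulatory cytosolic subunit, was lower at 1 h in all 4 stimulated mice in LT (-1.29 to -0.01 log2 units) and ST (-0.79 to -0.45). In LT it was also lower at 2 h (-1.35 to -0.17). From 4 h on it showed no common direction with ligand in LT and ST. In MPP it was higher in all 4 stimulated mice at 8 and 12 h, by 0.39 to 1.14 and 0.66 to 1.22 log2 units. In MPP at 12 h young mice 1, 2 and 3 held 466, 370 and 115 CPM, against 294, 158 and 62.5 CPM at 0 h. In LT the same mice held 313, 318 and 35.6 CPM, against 327, 129 and 13.4 CPM. In ST of young mouse 3 no count of Ncf4 was seen at 12 h, in the library of 0.991 M counts. Without ligand it was lower at 8 h in each cell type, as in MPP, with 234 and 82.3 CPM in young mouse 4 and old mouse 4, against 387 and 188 CPM at 0 h. No change of Ncf4 passed, with or without the block (smallest adjusted p = 0.56, with the block in LT at 2 h), and in ST at 12 h its sign depended on the block (0.39 ± 1.40 without and -0.18 ± 0.70 with it).

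Rac1 and Rac2, the small GTPases that complete the active complex, and Rap1a changed by -0.44 ± 0.49, 0.09 ± 0.71 and -0.18 ± 0.77 log2 units in LT at 12 h. None of these 3 genes passed at any of 6 times in 3 cell types, with or without the block. Of 9 genes of other NADPH oxidases 3 were high enough to test, Nox1, Noxa1 and Noxo1, and none passed. Nox1, a non-phagocyte catalytic subunit, was seen in MPP at 8 h at 12.3, 34.1, 40.3 and 36.0 CPM in young mice 1, 2 and 3 and old mouse 2 with ligand, against 0 CPM in both mice without it. At 0 h MPP held at most 0.498 CPM of Nox1. In LT at 8 h it held 25.3, 0, 6.13 and 5.29 CPM in the stimulated mice in that order and 0 CPM in the unstimulated ones.

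**Figure D3:**
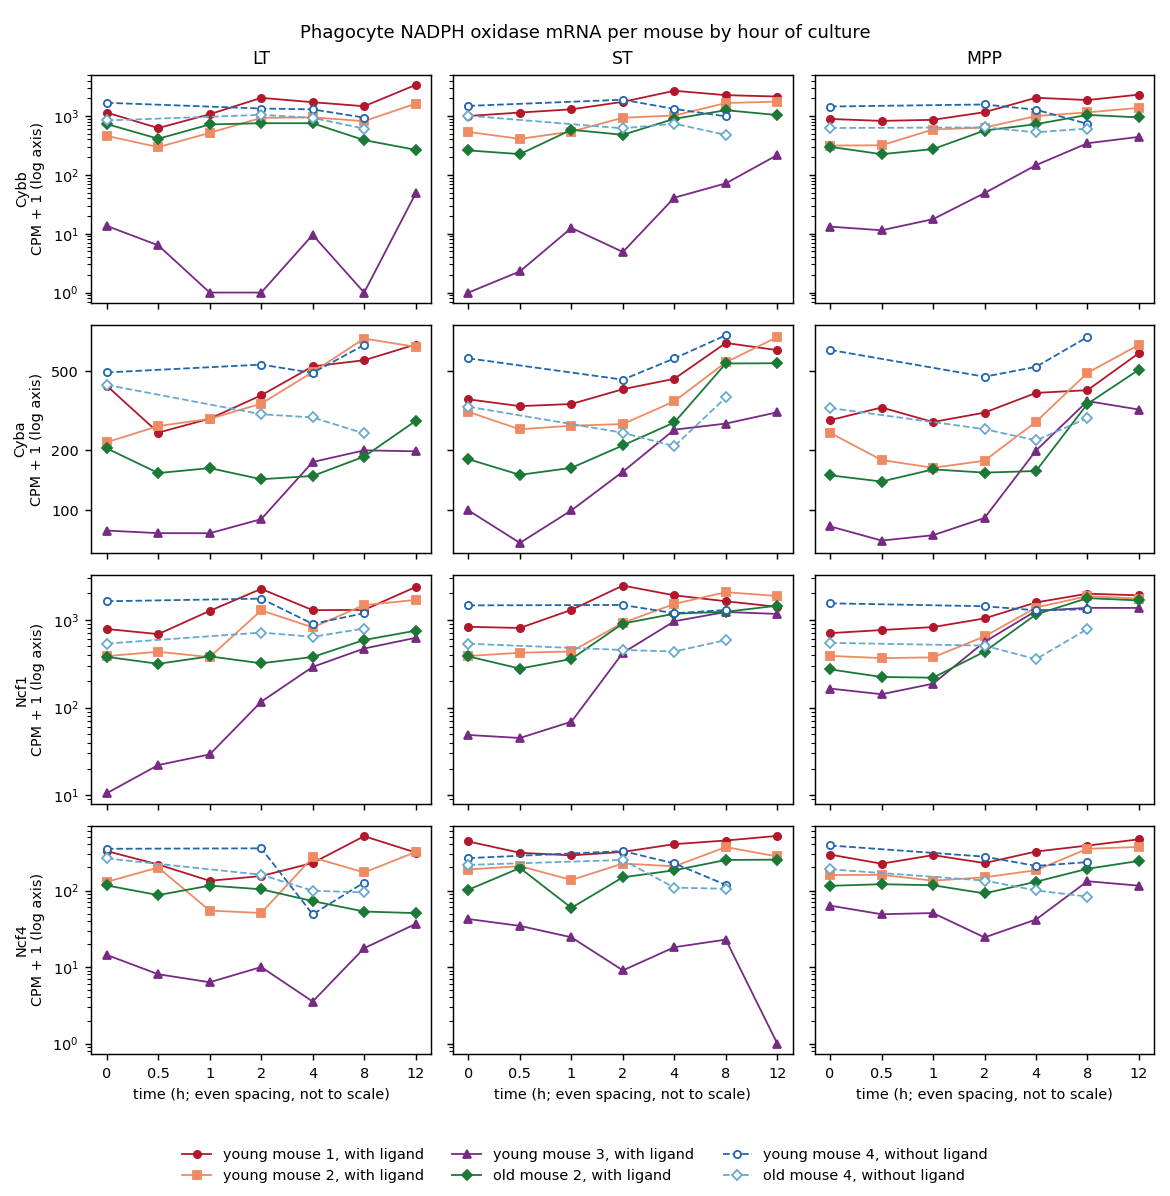
Expression of the oxidase genes Cybb, Cyba, Ncf1 and Ncf4 (CPM + 1, log axis) by hour of culture in LT, ST and MPP, 1 line per mouse, solid with ligand and dashed without. Young mouse 3 lies lowest at 0 h for each gene and climbs for Ncf1 (623 CPM at 12 h in LT, against 9.57 CPM at 0 h), while its Cybb in LT ends at 47.3 CPM, against 12.6 CPM at 0 h.

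Set side by side at 8 h, the 8 genes fell into different patterns by course. Nadk, Sod2, Ncf1 and Ncf4 had a larger log2 change in all 4 stimulated mice than in both unstimulated ones in LT. For Sod2 that separation was slight, with -0.46 in young mouse 3 and -0.47 in old mouse 4. For Ncf1 it was slight too, with a lowest stimulated change of 0.64 and a highest unstimulated one of 0.57. For Ncf4 the lowest stimulated change was itself a fall, -1.13, against -1.46 without ligand. In ST 5 genes were separated in this way (Nadk, Cybb, Cyba, Ncf1 and Ncf4) and in MPP 6 (the same with Sod2). Among all 14401 genes the share so separated was 6.37% in LT, 9.05% in ST and 15.1% in MPP. Nampt in MPP was the one member with all stimulated mice below both unstimulated ones, as were 10.8% of all genes. These counts come from the contrast by which Nadk was chosen and are a description.

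**Figure D4:**
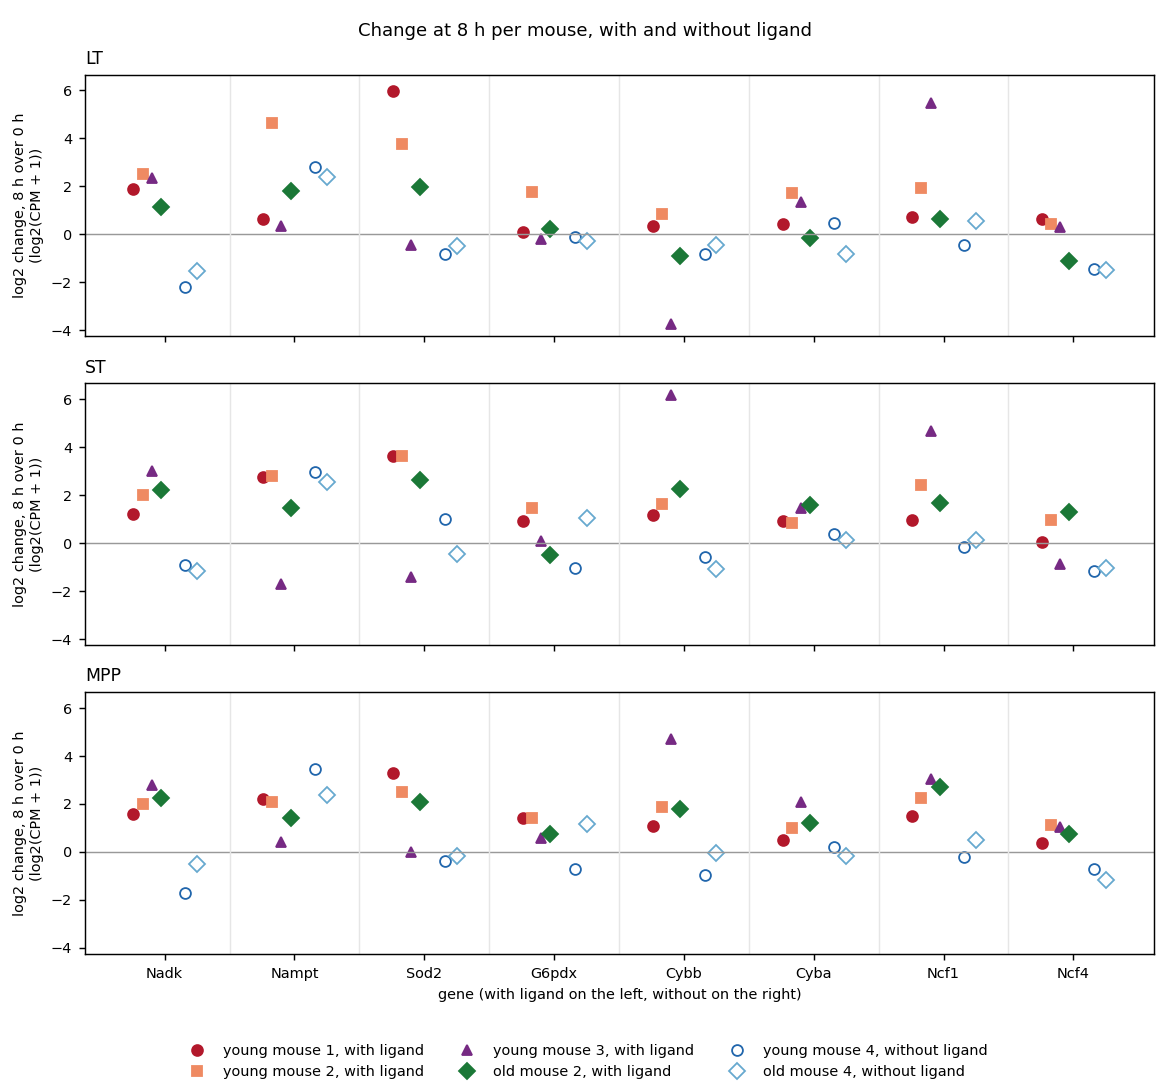
Log2 change from 0 to 8 h of the 8 genes, on the log2(CPM + 1) scale, in LT, ST and MPP, 1 symbol per mouse, filled with ligand (left) and open without (right). For Nadk the stimulated mice lie between 1.15 and 2.99 and the unstimulated ones between -2.21 and -0.50 over the 3 cell types.

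Across the 6 times after 0 h, 45 tests of the members were read in each cell type. Without the block 1 passed in LT, 1 in ST and 1 in MPP, each of them Nadk at 12 h, against 0.252%, 0.289% and 0.261% of all gene and time tests. These calls are not independent of the choice of Nadk. With the block 4, 5 and 3 passed, against 0.751% of all gene and time tests over the 3 cell types, and all were higher with ligand than at 0 h: 6 of Cyba, 3 of Nadk, 2 of Ncf1 and 1 of Nampt. Unadjusted p was under 0.05 in 6, 8 and 9 of the 45 tests without the block. The share of all genes under that level is not given, and tests of 1 cell type share their 0 h libraries. These counts are therefore not a result about the members as a set.

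**Figure D5:**
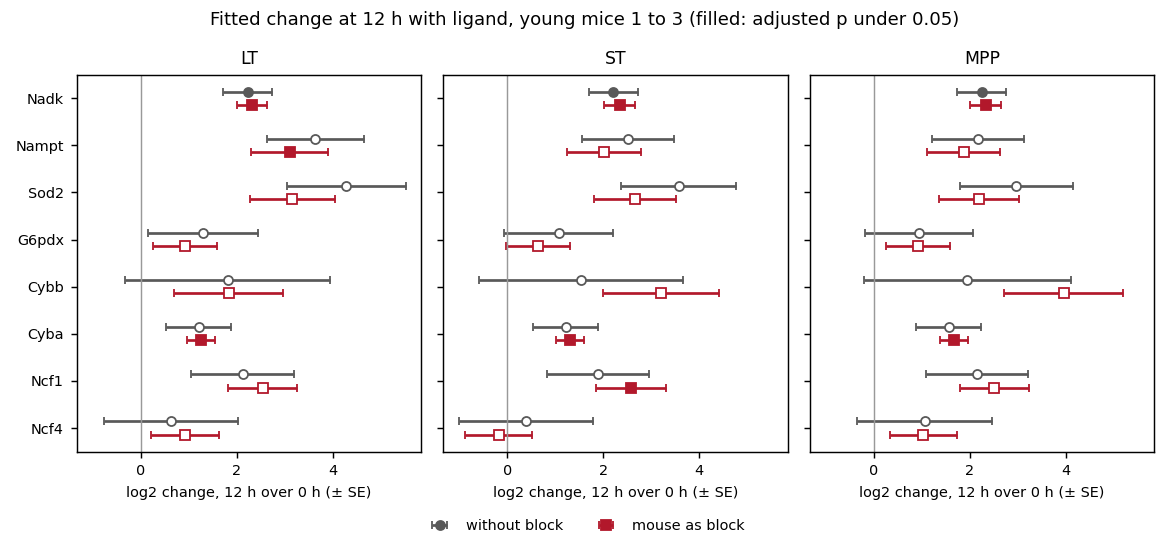
Fitted log2 change from 0 to 12 h with ligand (point) and its standard error (bar) in young mice 1 to 3, by edgeR without a block (circles) and with the mouse as a block (squares); filled symbols have an adjusted p under 0.05. Nadk is filled in both fits in the 3 cell types (2.21 to 2.34), Cyba with the block alone (1.25 to 1.67). The test of Nadk is not independent of the choice of that gene.

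Differences between cell types were small beside those between mice. At 0 h Nadk averaged 343 ± 205 CPM in LT, 376 ± 197 CPM in ST and 320 ± 156 CPM in MPP of the 4 young mice (SD, n = 4). The means of Sod2 were 82.3 ± 38.6, 104 ± 34.2 and 110 ± 13.9 CPM, and those of Cybb 822 ± 734, 755 ± 635 and 666 ± 636 CPM. For each of these genes the spread over mice exceeded the gaps between neighbouring means. The cell types came from the same mice, so this spread does not measure paired differences. In 24 tests of the 8 genes between LT, ST and MPP at 0 h edgeR called 0, as for all genes (0%). None had an unadjusted p under 0.05 by edgeR, and DESeq2 and limma voom called 0 as well. With the mouse as a block edgeR also called 0 (smallest unadjusted p = 0.13). The change from 0 h was compared between cell types in 72 tests at 2, 4 and 8 h. None passed and none had an unadjusted p under 0.05 (0% of all genes; 0 calls with DESeq2, limma voom or the block). With the block 1 test had an unadjusted p under 0.05, the change of Cybb at 8 h, for which LT minus MPP was -3.49 ± 1.62 log2 units (adjusted p = 0.9). For Nadk the difference in change between LT and MPP at 8 h was 0.08 ± 0.69.

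Old mice were close to the young range at 0 h. Nadk held 229 and 387 CPM in LT of old mice 2 and 4, against 134 to 614 CPM in the 4 young mice (median 311). In ST it held 159 and 245 CPM, against 143 to 578 CPM, and in MPP 193 and 239 CPM, against 152 to 515 CPM. Sod2 held 111 and 142 CPM in LT of the old mice, against 32.5 to 124 CPM in the young ones. In MPP Sod2 held 122 and 131 CPM in the old mice, against 89.2 to 118 CPM in the young ones. Old and young overlapped for Nadk in the 3 cell types and for Sod2 in LT. For Sod2 in MPP they did not, but the nearest values were 122 and 118 CPM. With 2 old mice, and with no share of all genes so separated given, this is a description. Of 24 tests of old against young edgeR called 0 (0% of all genes), with no unadjusted p under 0.05, and DESeq2 and limma voom called 0. The fitted difference of Nadk, old minus young, was -0.20 ± 0.63 in LT, -0.94 ± 0.65 in ST and -0.63 ± 0.64 in MPP. With 2 old mice and, after stimulation, 1, an effect of age on the response was not tested.

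Finally, genes with a course like that of each member were sought over 30 condition means of log2(CPM + 1), among 8859 genes of at least 10 CPM. These correlations are descriptions over conditions that share mice, and they span the contrast by which Nadk was chosen. The means pool mice, so that differences between mice, as for Sod2 in LT of young mouse 3, do not show in them. Nadk was nearest to Cd40 (r = 0.95), a costimulatory receptor, Lad1 (0.914) and Cxcl16 (0.912), a chemokine. Sod2 was nearest to Cd40 (0.927), Cxcl16 (0.916) and Lacc1 (0.911), and its r with Nadk was 0.9. Genes near Nampt included Atp6v1e1 (0.934) and Slpi (0.934), and its r with Nadk was -0.203. Cybb was nearest to Slpi (0.877), Lilrb4 (0.854) and Lcn2 (0.851), a neutrophil granule gene. Cyba was nearest to Fcer1g (0.931), Ctsz (0.925) and Gstm1 (0.919), and Ncf1 to AA467197 (0.92), Glipr1 (0.91) and Lcp1 (0.903). G6pdx (C3, Tmem43 and Gca, 0.797 to 0.825) and Ncf4 (Clec12a, C3 and Dock10, 0.694 to 0.705) had weaker matches.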

How the data were processed

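Libraries were made by SMART-seq2 from polyA RNA, per the labels' protocols, and no molecular identifiers are named, so that a limit from 3 counts holds for counting error alone. The authors deposited 1 table of expected counts per gene symbol, made with RSEM (version not stated) on mm9, per the submitters' processing notes. The 127 libraries included 6 nearly empty ones (7 to 41 counts, LT of old mouse 2), which were dropped at a minimum of 1000. Repeat libraries of the same mouse, cells and hour were added up and rounded to whole numbers. Columns were tied to mice by age, cell type, time, dates and repeats in their names. All 0 h libraries were read as 1 baseline, although some are labelled with the ligands. CPM is counts per 1000000 summed counts. The main test was edgeR 4.0.16 (TMM, filterByExpr, quasi-likelihood, 2-sided, Benjamini-Hochberg at 0.05 over all genes of a contrast) on 63 libraries of young mice 1 to 3, and on 18 libraries at 0 h (12983 genes). A mouse number marks 1 animal; libraries of a mouse deviated together (mean r 0.207, 0.0776 and 0.432 for young mice 1, 2 and 3, lowest r 0.0318), so the mouse is also fitted as a block. Alternatives were DESeq2 1.42.0, limma 3.58.1 voom, other scaling, filters, repeats and subsets. The edgeR step was tested on simulated counts. The members and lists were chosen with earlier results of these data known. Genes were named by rule: all members, the oxidase list, the 3 most abundant of each other list, and the 3 nearest in course; some genes that this rule names are not reported here. Cybc1 and Trbc1 were not matched. Nothing states separate cultures for repeats. Without the block, p-values rest on the spread between mice within a group, and count libraries of 1 mouse as independent. With the block they rest on the spread left after the mean of each mouse is taken out. Neither takes the mice as the only units.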

Additional observations from a re-analysis of the deposited data

Results flagged for a closer look

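Sod2 in MPP at 0 h was lowest in young mouse 1, at 89.2 CPM, against 115 to 118 CPM in the other 3 young mice, a gap of 0.891 of the range, above Dixon's 95% critical value. The 2 repeats of that library held 97.1 and 82.0 CPM. Of 24 such groups of 4 this was 1, and chance flags about 1 in 20.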

How the results depend on the processing

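Member calls among 45 tests per cell type, 1 each in LT, ST and MPP by edgeR without a block, moved as follows. With the mouse as a replicate block, which pairs libraries of 1 animal, they were 4, 5 and 3; it also added the list calls given beside each list, and none between cell types. DESeq2 gave 6 in LT and 2 in ST, and limma voom 8 in MPP. The share of all genes moved as well. Over the 3 cell types 0.751% of all gene and time tests passed with the block, 2.94% with DESeq2 and 4.26% with limma voom. Without a block the shares were 0.252%, 0.289% and 0.261% in LT, ST and MPP. Leaving out libraries under 8000 detected genes gave 0 in LT and 0 in ST, and fits of 1 cell type alone gave 0, 0 and 2. Leaving out each young mouse gave 0 to 7 calls in LT, 0 to 4 in ST and 0 to 4 in MPP. Calls were 0 without mouse 2 and highest without mouse 3, where 13 of them are Sod2. Without mouse 3, 0.521% of all gene and time tests passed. The shares for the other subsets are not given. The cause of these shifts in member calls was not tested. The other alternatives (DESeq2 size factors, both filters, 1 repeat, near-empty repeats kept) left 1 call in each cell type. Calls between cell types at 0 h, in the change from 0 h and between ages were 0 in every alternative run. With the block, changes that did not pass turned sign in several tests, among them Ncf4 in ST at 12 h (-0.18 against 0.39) and in MPP at 4 h (-0.08 against 0.28), and at 0 h Nampt in LT minus MPP (-0.11 against 0.27) and Cybb in ST minus MPP (-0.18 against 0.16). DESeq2 size factors moved the median of all genes by up to 0.11 log2 units (MPP at 12 h, -0.36 against -0.25). Depth limits genes near 0, as in ST of young mouse 3 at 12 h (0.991 M counts).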
